A study of Mus musculus with 20 samples.

Results

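The Nr4a and Egr genes analysed here, Nr4a1, Nr4a2, Nr4a3, Egr1, Egr2 and Egr3, are transcription factor genes that T cells switch on soon after their antigen receptor is engaged. They were taken by name rather than by a rule on their values, although earlier results of these data were known. They are 6 of the 13798 genes measured by single-cell RNA sequencing in follicular T cells of the mouse spleen. All cells came from C57BL/6 bone marrow chimeras, that is, irradiated recipients whose blood system was rebuilt from donor marrow. The 5 WT chimeras (mice 11, 12, 14, 23 and 36) received congenic WT marrow and, per the labels, NP-OVA in alum at 6 weeks, and gave 14965 cells. The 5 564Igi chimeras (mice 13, 17, 21, 24 and 34) received the same kind of marrow mixed with marrow of mice that carry the knocked-in heavy and light chains of an autoreactive B cell receptor, and gave 13227 cells. The labels place the end of the experiment at 10 weeks after irradiation in both groups. Only the WT chimeras were immunized, so the autoreactive B cells and the absence of immunization cannot be told apart in any comparison of the groups. Cells were sorted as CD4+CXCR5+PD-1+ without CD45.1, and the T cell receptor (TCR) chains were sequenced from the same droplets. Raw molecule counts (UMIs) summed to between 3424280 and 15241983 per mouse, over 1121 to 4030 cells.

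Nr4a1, Nr4a2 and Nr4a3 encode orphan nuclear receptors that bind DNA without a known natural ligand, and are best known in T cells as readouts of receptor signalling and for restraining it in regulatory, anergic and chronically stimulated cells. Egr1, Egr2 and Egr3 encode zinc finger factors induced by receptor signalling, in part through NFAT. Egr2 and Egr3 are known for limiting T cell activation and for supporting follicular helper (TFH) differentiation, and Egr1 is the most rapidly induced of the family. In the follicle, TFH cells receive receptor signals from antigen-presenting B cells, while follicular regulatory (TFR) cells, marked by Foxp3, hold the reaction in check.

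The members are protein coding genes. On GRCm38 with the GENCODE vM21 annotation, Nr4a1 lies at chr15:101254269-101274795 and Nr4a3 at chr4:48045153-48086447 on the plus strand, and Nr4a2 at chr2:57106830-57124003 on the minus strand. Egr2 lies at chr10:67535475-67542188 and Egr3 at chr14:70077203-70082614, both on the plus strand. RefSeq promoter windows of GRCm38.p6, searched over the 250 bases before each gene start on both strands, were used for the 4 members that have an entry (Nr4a1, Nr4a2, Nr4a3 and Egr2) among 32851 windows. The full cyclic AMP response element (CRE, TGACGTCA) was in none of their windows and in 1.55% of all windows. Its first 5 letters (TGACG, here called the short CRE, and a part of any CRE, chosen after these sequences were seen) occurred 4 times in the windows of Nr4a1, Nr4a2 and Nr4a3, a number reached by 0.137% of all windows. The CArG box, bound by serum response factor, is the letters CC, 6 of A or T, and GG. It was in 4 of the 5 Egr2 windows and in 1.47% of all windows. Some of these Egr2 windows overlap and hold the same box, so they are not separate sites. The Egr site GCGNGGGCG was in the Nr4a1 and Nr4a2 windows and in 4.7% of all windows, and the Nr4a site (NBRE, AAAGGTCA) was in no member's window and in 1.34% of all. A match describes these letters only. The sequences that carry the repeated short CRE follow, 5′ to 3′ on the gene's strand with TGACG or its reverse complement in capitals. They are chr15:101266596-101266845 on the plus strand for Nr4a1, a window inside the annotated gene with no exon base, chr2:57124004-57124253 on the minus strand for Nr4a2, and chr4:48045055-48045152 on the plus strand for Nr4a3, the 98 bases that precede the first exon and hold 3 of its 4 matches.
Nr4a1: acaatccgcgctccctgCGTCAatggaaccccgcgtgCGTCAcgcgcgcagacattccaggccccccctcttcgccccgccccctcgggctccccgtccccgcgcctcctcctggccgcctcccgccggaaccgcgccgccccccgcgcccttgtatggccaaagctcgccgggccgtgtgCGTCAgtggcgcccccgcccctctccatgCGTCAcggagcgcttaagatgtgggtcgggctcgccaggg
Nr4a2: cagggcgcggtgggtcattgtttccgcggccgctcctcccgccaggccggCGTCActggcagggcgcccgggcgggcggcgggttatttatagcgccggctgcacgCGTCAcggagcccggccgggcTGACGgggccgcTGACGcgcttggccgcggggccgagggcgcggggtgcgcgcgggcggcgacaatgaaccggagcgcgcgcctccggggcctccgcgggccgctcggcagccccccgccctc
Nr4a3: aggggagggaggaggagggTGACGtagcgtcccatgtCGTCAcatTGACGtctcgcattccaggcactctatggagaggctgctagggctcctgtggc

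The CArG boxes of the Egr2 windows, with 10 bases on each side and the box in capitals, lie at chr10:67537484-67537513 and chr10:67537787-67537816 on the plus strand.
Egr2 first box: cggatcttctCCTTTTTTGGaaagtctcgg
Egr2 second box: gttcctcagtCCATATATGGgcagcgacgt

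The 28192 cells carried the markers of the sort. Cd3e was found in 99.4% of cells, Pdcd1 in 75.6%, Cd4 in 67.3% and Cxcr5 in 40.7%. Of follicular T cell genes outside the gate, Icos was found in 65.0%, whereas Bcl6, the master factor of TFH cells, was found in 10.9%. The authors' 6 cluster names were compared with their markers. Foxp3 was found in 56.7% of the 11650 TFR cells against 7.19% of the 11953 activated TFH cells, Sostdc1 in 100% of the 2803 Sostdc1 cells, Gzmk in 86.7% of the 682 effector cells and Isg15 in 97.9% of the 379 interferon-stimulated cells. The markers listed for activated TFH cells did not single them out. Tnfsf8 was found in 63.4% of activated TFH and 76.5% of Sostdc1 cells. S100a6 was found in 75.8% of activated TFH, 74.6% of Sostdc1 and 74.9% of interferon-stimulated cells. Foxp3 was also found in 25.9% of the interferon-stimulated cells. The 725 cells named central memory carried Sox4 (70.1%). Fewer of them carried the sort's own markers, with Cd4 in 33.4%, Cxcr5 in 26.6% and Pdcd1 in 49.1%, and Icos was found in 29.0%. Among markers of other cells, the defining B cell genes Cd79a and Ms4a1 were found in 0.253% and 0.0554% of cells, the myeloid gene Lyz2 in 0.231% and the globin gene Hbb-bs in 0.465%. Higher shares were seen for the other B cell markers, with Cd22 in 4.37%, Cd79b in 3.52% and Fcmr in 2.83%, as was Cd8b1 in 4.59%. Cd79b was found in 5.61% of TFR and 2.14% of activated TFH cells and Fcmr in 5.50% and 1.15%, and their part in differences between these clusters was not tested. The B cell list summed to levels of 0.083 to 0.15 per mouse. The cell barcodes of 988 cells also occurred in another mouse's library. The libraries of mice 34 and 36 are numbered apart from the others, and these mice had the highest summed heat shock gene levels, 12.1 and 11.3, in a range over mice that began at 7.84.

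In most follicular T cells no member was detected, which at this depth does not mean that none was expressed. Over the 10 mice, 62.0% ± 4.30 (SD) of a mouse's cells had none of the 6, 22.8% ± 3.83 had 1, and 15.2% ± 1.96 had at least 2. An Egr transcript was found in 32.4% ± 3.98 of cells, an Nr4a transcript in 15.2% ± 2.31, and both families in 9.63% ± 1.51. Egr1 was found in 26.8% ± 4.03 of cells (lowest mouse 22.5%, median 25.6%, highest 34.4%). Egr2 was found in 15.2% ± 1.97 (12.1%, 15.1% and 18.0%), and Nr4a1 in 12.6% ± 2.03 (9.11%, 12.4% and 16.0%). The remaining 3 were rarer, at 3.58% ± 0.831 for Nr4a3, 2.63% ± 0.820 for Egr3 and 2.40% ± 0.716 for Nr4a2. The same mice were not high for all members, since mouse 12 had the highest Egr1 share and the lowest Nr4a1 share, and mouse 14 had the highest shares of Nr4a1, Nr4a3 and Egr2. Shares are not compared between genes as levels, because transcript length and capture differ between them.

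**Figure D1:**
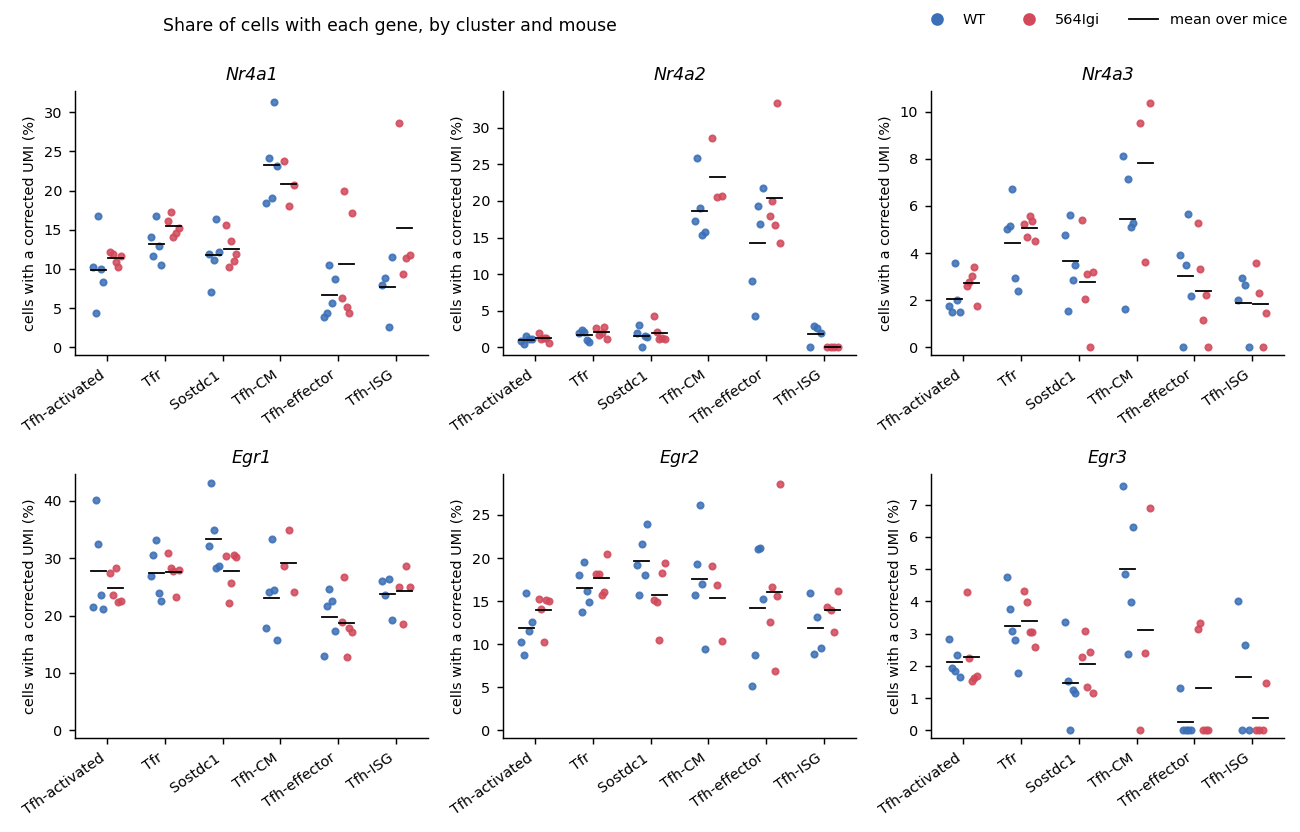
Share of cells with at least 1 corrected UMI of each member (y axes, percent) in each of the authors' 6 clusters (x axes), with 1 point for each mouse that had at least 20 cells of the cluster, coloured by chimera, and bars at the mean of each chimera group. Over both groups Nr4a2 stands at a mean of 20.4% in central memory and 17.4% in effector cells and at 1.86% or less in the other clusters, while the Egr1 points of the clusters overlap.

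The members differed in how they were spread over the clusters. These levels are means over a mouse's cells of log2(corrected UMIs + 1), and their order is a description, since the clusters were drawn from the same cells. Nr4a1 was highest in the central memory cluster, at 0.44 ± 0.08 (n = 8 mice), where 22.3% of cells held it. This was above the TFR level of 0.26 ± 0.05 (n = 10) in 8 of 8 mice and beyond the spread. Sostdc1 cells (0.18 ± 0.05), interferon-stimulated cells (0.17 ± 0.10), activated TFH cells (0.16 ± 0.05) and effector cells (0.12 ± 0.09) followed. From TFR cells down, no neighbours were apart beyond their spread. Median raw UMIs were 4027 in central memory and 3461 in TFR cells. In cells with 3000 to 4500 raw UMIs, Nr4a1 stood at 0.41 ± 0.12 (n = 3) and 0.24 ± 0.07 (n = 10) in these clusters. Central memory was higher in 3 of 3 mice there, but not beyond the spread. Nr4a3, the member most often named beside Nr4a1 as a receptor signal readout, came in a similar order at lower levels, from 0.095 ± 0.065 in central memory and 0.064 ± 0.017 in TFR to 0.028 ± 0.010 in activated TFH cells.

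Nr4a2 was the member with the most restricted pattern. Its level was 0.33 ± 0.08 in central memory cells and 0.30 ± 0.17 in effector cells. Central memory was higher in 4 of 8 mice. The within-mouse difference, 0.008 ± 0.164, was too variable to order these 2 clusters. The Nr4a2 level was 0.028 ± 0.010 in TFR cells and 0.027 ± 0.019 in Sostdc1 cells. It was 0.015 ± 0.007 in activated TFH cells and 0.0094 ± 0.0132 in interferon-stimulated cells. The effector level exceeded the TFR level in 10 of 10 mice. In the effector cluster, which is marked by the granzyme gene Gzmk and the chemokine gene Ccl5, the share of cells with Nr4a2 ran from 4.35% in mouse 12 to 33.3% in mouse 24. In central memory cells it ran from 15.3% to 28.6% over the 8 mice with at least 20 such cells. Over the 56 means of a mouse and a cluster, the genes outside the family most like Nr4a2 were Eomes (Pearson r 0.87), Plek (0.87) and Tgfbr3 (0.86). These correlations describe points that share libraries and depth.

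The Egr genes were spread more evenly. Egr1 ran from 0.47 ± 0.12 in central memory, 0.45 ± 0.06 in TFR and 0.45 ± 0.10 in Sostdc1 cells to 0.39 ± 0.10 in activated TFH, 0.34 ± 0.07 in interferon-stimulated and 0.30 ± 0.10 in effector cells, and no neighbours in that order were apart beyond their spread. Egr2 ran from 0.28 ± 0.07 in central memory and 0.27 ± 0.04 in TFR to 0.18 ± 0.04 in activated TFH and 0.16 ± 0.04 in interferon-stimulated cells. Egr3 had its highest means in the same 2 clusters, 0.060 ± 0.042 and 0.042 ± 0.012, and its lowest, 0.0085 ± 0.0141, in effector cells. An Egr transcript was found in 29.2% ± 6.01 of central memory cells and 33.2% ± 3.83 of TFR cells, and an Nr4a transcript in 34.1% ± 5.06 and 16.5% ± 2.46.

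Between the 2 largest clusters every member was higher in the TFR cluster as a whole than in activated TFH cells in at least 9 of 10 mice. The mean difference was 0.10 ± 0.03 for Nr4a1, 0.037 ± 0.014 for Nr4a3, 0.09 ± 0.03 for Egr2 and 0.018 ± 0.010 for Egr3, each in 10 of 10 mice. It was 0.013 ± 0.010 for Nr4a2 and 0.06 ± 0.09 for Egr1, each in 9 of 10. Median raw UMIs were close, at 3461 in TFR and 3547 in activated TFH cells. Within the TFR cluster, cells without a Foxp3 UMI had more Egr2 than cells with one (20.2% ± 3.08 of cells against 14.6% ± 2.67, in 9 of 10 mice). They also had more Egr3 (4.50% ± 1.51 against 2.41% ± 0.935, in 10 of 10). Nr4a1 and Nr4a3 were each higher without Foxp3 in 8 of 10 mice, Egr1 in 7 and Nr4a2 in 5 (1.95% against 1.82%). In TFR cells with a Foxp3 UMI, the Egr shares were near those of activated TFH cells. They were 26.4% against 26.3% for Egr1, 14.6% against 12.9% for Egr2 and 2.41% against 2.20% for Egr3. The Nr4a shares were 13.8% against 10.6% for Nr4a1, 4.25% against 2.39% for Nr4a3 and 1.82% against 1.15% for Nr4a2. These shares were set side by side without a test.

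The comparison of the chimeras asks whether follicular T cells of an autoimmune reaction carry another level of receptor signal genes than those of a response to a foreign antigen. No member passed limma's test (adjusted p under 0.05 over all genes tested) in all cells or in any cluster, and 5 of the 39 member comparisons that passed the filter on low genes had an unadjusted p under 0.05, as did 4.63% of all genes over the same comparisons. Neither the members nor the comparisons are independent, since all cells include those of the clusters. The authors corrected the counts within each chimera group, so a difference between the groups rests on these corrections being comparable, which was not tested. The test called few genes at all, 0.0703% of those tested in all cells, 0.0406% in activated TFH, 0.0901% in TFR, 0.0405% in Sostdc1, 0.0290% in central memory, 0.0623% in effector and 0.0106% in interferon-stimulated cells. In all cells the 564Igi minus WT difference was 0.03 for Nr4a1 (0.19 ± 0.04 in WT, 0.23 ± 0.03 in 564Igi), −0.02 for Egr1 (0.43 ± 0.09 and 0.41 ± 0.03) and 0.014 for Egr2 (0.22 ± 0.03 and 0.23 ± 0.04), each within the overlap of the groups. Without mouse 14 the Nr4a1 difference was 0.05. The Egr1 difference changed sign in 1 of 20 alternatives and the Egr2 difference in 0 of 20.

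**Figure D2:**
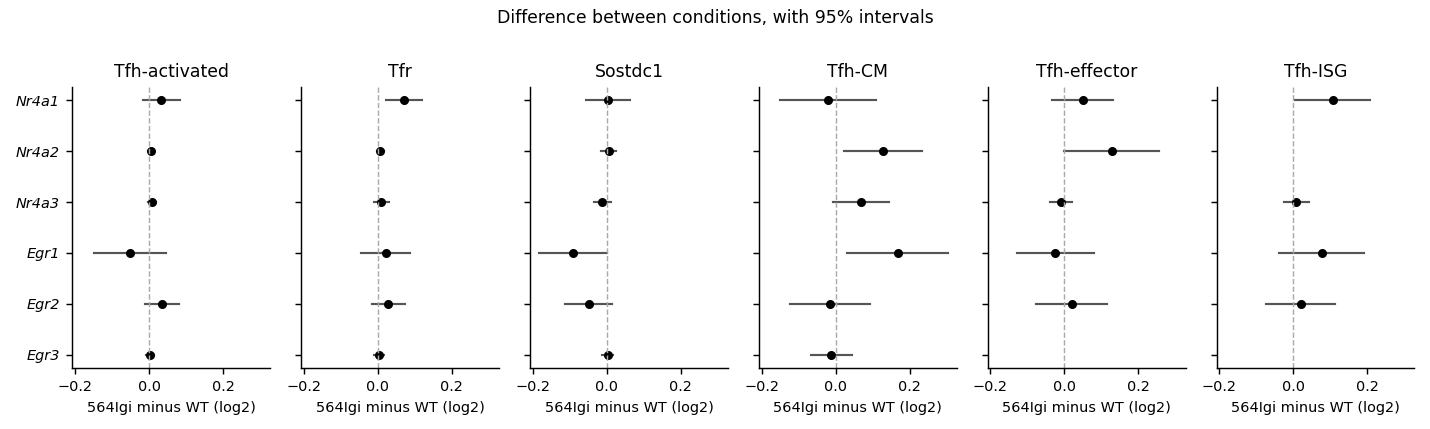
Difference in mean level between 564Igi and WT chimeras (x axes, log2(corrected UMIs + 1), 564Igi minus WT) for each member (y axes) in each of the authors' 6 clusters, with points at the difference and bars over the 95% confidence interval of limma's fit. The Nr4a1 interval in TFR cells runs from 0.023 to 0.118, and Egr3 in effector cells and Nr4a2 and Egr3 in interferon-stimulated cells were below the filter and have no point.

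The nearest to a difference in a large cluster was Nr4a1 in TFR cells. Its levels were 0.17, 0.20, 0.21, 0.23 and 0.31 in the WT mice and 0.26, 0.27, 0.31, 0.32 and 0.32 in the 564Igi mice. The groups overlapped only through WT mouse 14, at 0.31. The means were 0.22 ± 0.05 and 0.29 ± 0.03 (n = 5 each), a difference of 0.07 (SE 0.023), with limma's p of 0.00565 adjusted to 0.690 and an exact two-sided permutation p of 0.0397 before any adjustment over the 42 member comparisons of this kind. Without mice 34 and 36 the difference was 0.05, and without mouse 14 it was 0.09 with limma's adjusted p at 0.0548. In TFR cells the means of the other 5 members were higher in 564Igi mice as well, by 0.0028 (Egr3) to 0.028 (Egr2), each with overlapping groups. The Egr2 difference was 0.011 without mouse 34 and 0.0088 without mice 34 and 36. Whether Nr4a1 differed more in TFR than in activated TFH cells was tested on each mouse's difference between the clusters. The 564Igi mice had the larger differences by 0.04 (0.12 against 0.08, exact permutation p = 0.0952, limma's adjusted p = 0.557), and no member was called where 0.0207% of all genes were.

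The only comparison of 42 in which the groups did not overlap was Nr4a2 in the central memory cluster. The WT levels were 0.23, 0.24, 0.29, 0.32 and 0.32, and the 564Igi levels 0.33, 0.42 and 0.46, in mice 17, 13 and 24. The means were 0.28 ± 0.04 (n = 5) and 0.41 ± 0.06 (n = 3), a difference of 0.13 with limma's adjusted p at 0.575. The exact permutation p was 0.0179, the smallest that 5 against 3 mice can give, and 4.77% of all genes tested in the cluster likewise did not overlap between these mice. Mice 21 and 34 held only 19 and 13 such cells and were left out under the minimum of 20. Their levels, 0.14 and 0.08, each from 1 positive cell, lay below every WT mouse. Egr1 in the same cluster was 0.40 ± 0.09 in WT and 0.57 ± 0.10 in 564Igi mice (difference 0.17, exact permutation p = 0.0714, limma's adjusted p = 0.575). In the effector cluster Nr4a2 ran from 0.043 to 0.39 in WT and from 0.18 to 0.68 in 564Igi mice, with wide overlap (difference 0.13, exact permutation p = 0.278). That difference was 0.05 without mouse 24, 0.08 without mouse 12 and 0.21 without mice 34 and 36.

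Egr1 in activated TFH cells was set apart by 1 mouse. WT mouse 12 stood at 0.64, with Egr1 in 40.2% of its activated cells, and the other WT mice at 0.31, 0.32, 0.34 and 0.48. The 564Igi mice lay between 0.34 and 0.41. The same mouse had the lowest activated TFH levels of Nr4a1 (0.059), Nr4a2 (0.0046), Nr4a3 (0.016) and Egr2 (0.11) of all 10 mice. The members thus did not rise together in it. The 564Igi minus WT difference in Egr1 was −0.05 with mouse 12 and 0.0056 without it, and neither passed the test.

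Cells of a mouse that share a TCR were assumed to descend from 1 precursor. The size of such a clone is here the number of its cells that were captured. With 2047 to 4695 TCR cells per mouse, a singleton may belong to a larger clone. A clone was taken as the cells of a mouse with the same pair of alpha and beta CDR3 sequences, its size was counted over the 33833 cells of the TCR table, and 21405 cells had both RNA and TCR. The 15635 clones were grouped as singletons, small clones of 2 to 4 cells and expanded clones of at least 5, and expanded cells were compared with singletons of the same cluster and mouse. The cells of a clone are not replicates, so the 10 within-mouse differences were tested.

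In activated TFH cells, Egr1 (GRCm38 chr18:34859823-34864984, plus strand) was higher in expanded clones. The mean level was 0.33 ± 0.07 in singletons (22.5% ± 3.88 of cells positive), 0.39 ± 0.08 in small clones and 0.42 ± 0.12 in expanded clones (27.8% ± 6.47). From singletons to expanded clones it went from 0.20 to 0.40 in mouse 11, from 0.41 to 0.72 in mouse 12, from 0.43 to 0.49 in mouse 14, from 0.27 to 0.39 in mouse 23 and from 0.29 to 0.31 in mouse 36, the WT mice. In the 564Igi mice it went from 0.39 to 0.40 in mouse 13, from 0.34 to 0.32 in mouse 17, from 0.34 to 0.37 in mouse 21, from 0.32 to 0.40 in mouse 24 and from 0.34 to 0.38 in mouse 34. The expanded cells were thus higher in 9 of 10 mice, with the widest gap in mouse 12 and the reverse in mouse 17. The mean difference was 0.086 (SE 0.021, median 0.048, limma's adjusted p = 0.00697, exact sign-flip p = 0.00586), and Egr1 was the 1 member called higher, among 2.06% of all genes. Without mouse 12 the difference was 0.06 and was still called, with limma's adjusted p at 0.0203. It was not called when cells were first averaged within each clone (0.06, limma's adjusted p = 0.0682), when clones with most of their cells in other clusters were taken (0.043, 0.491), or in a fit that ignored which mouse the classes came from (adjusted p = 0.374). It was also not called without limma's variance trend (adjusted p = 0.097), with no filter on low genes (0.0977) or under a stricter rule that asks for a difference over 0.2.

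**Figure D3:**
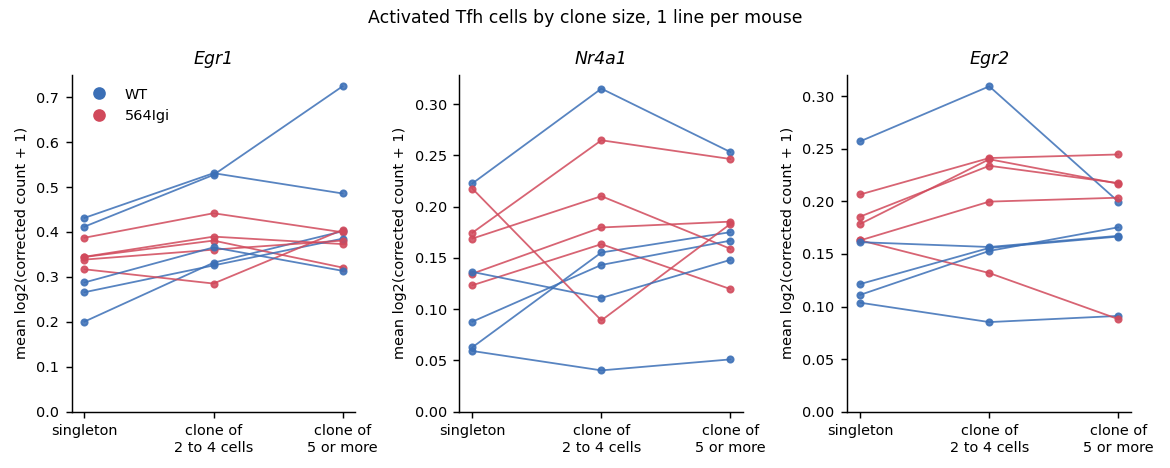
Mean level of Egr1, Nr4a1 and Egr2 (y axes, log2(corrected UMIs + 1)) in activated TFH cells of singleton, small and expanded clones (x axes), with 1 line for each of the 10 mice, coloured by chimera. The Egr1 line ends higher than it starts in 9 of 10 mice, and mouse 12 ends at 0.72.

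The remaining members differed less between clone sizes. Nr4a1 was 0.14 ± 0.06 in singletons and 0.17 ± 0.06 in expanded activated cells, a difference of 0.03 (SE 0.012, higher in 6 of 10 mice, limma's adjusted p = 0.120). Egr2 differed by 0.012 (SE 0.012, 7 of 10 mice, adjusted p = 0.591), and the other 3 by between −0.0040 and 0.0058, with adjusted p from 0.399 to 0.680. Beside the Egr1 result, median raw UMIs were 3921 ± 550 in singletons and 3503 ± 547 in cells of expanded clones centred on the cluster, and Foxp3 was found in 11.5% ± 4.22 and 2.31% ± 1.23 of them. Singletons were thus the deeper class and held more Foxp3, and the part of either in the Egr1 result was not tested. The Egr1 difference was 0.14 ± 0.12 in WT and 0.03 ± 0.04 in 564Igi mice, and the contrast between the chimeras, −0.11 (SE 0.037), did not pass (exact permutation p = 0.0635, limma's adjusted p = 0.472) and was −0.07 without mouse 12. By limma no gene was called for that contrast in activated TFH or in Sostdc1 cells (0% in each, with 702 and 599 genes at an unadjusted p under 0.05 and no other tool run), and in TFR cells no member was among the 0.110% that were.

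In Sostdc1 cells, where 7 mice had enough cells in both classes, no member was called and 0.0199% of all genes were. Nr4a3 was lower in expanded clones in 6 of 7 mice, by 0.03 (exact sign-flip p = 0.0469, limma's adjusted p = 0.761). In TFR cells no member was called, against 3.20% of all genes. Nr4a1 was 0.27 ± 0.07 in singletons and 0.24 ± 0.05 in expanded clones, lower in 8 of 10 mice (difference −0.04, SE 0.016, limma's adjusted p = 0.203, and −0.02 without mouse 24), and Egr1 differed by 0.0024. These values changed when each clone was given equal weight. With cells first averaged within each clone, Egr1 (0.13, limma's adjusted p = 0.0102) and Egr2 (0.17, adjusted p = 6.02e-05) were called higher in expanded clones of the TFR cluster. They were among 1.23% of all genes, and the Nr4a1 difference was 0.042 (adjusted p = 0.49).

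Other genes of receptor signalling moved with clone size in activated TFH cells, where 8.70% of all genes were called in either direction. Of 9 tested genes linked to Nr4a factors in regulatory or chronically stimulated T cells, 6 rose and 2 fell. Those with the smallest p were Foxp3 (−0.09), the inhibitory receptor genes Pdcd1 (0.36) and Tigit (0.20), Tox (0.14), a factor of chronically stimulated cells, and Ikzf4 (−0.020). Of 20 other genes induced early by the TCR, 5 rose and 3 fell, among them Tnfrsf4, which encodes the costimulatory receptor OX40 (0.21), Cd5, a surface gauge of receptor signal (0.22), Bhlhe40 (0.07), the growth regulator Myc (−0.029) and the phosphatase gene Dusp5 (−0.023). Of 12 Egr corepressors and anergy-linked genes 5 rose and 1 fell, including the corepressor Nab1 (0.07), the inhibitory receptor gene Lag3 (0.25), the ubiquitin ligase gene Rnf128 (0.05), Nt5e (0.07) and the diacylglycerol kinase gene Dgka (−0.13). For the signalling steps before the members, of 14 AP-1 and other immediate-early genes Dusp1 (0.05) and Ier5 (0.05) rose. Of 9 NFAT and calcineurin genes Nfatc1 (0.11) rose and Ppp3ca (−0.022) fell. Of 6 genes of the list around serum response factor, 1 was called higher. The median difference was 0.07 for the Nr4a-linked list, 0.0016 for the early genes, 0.0023 for the Egr list, 0.0064 for the immediate-early list, −0.0043 for the NFAT and calcineurin list and −0.0093 for the list around serum response factor, against −0.0059 for all genes tested. The 6 canonical follicular T cell genes (Pdcd1 is in this list too) had a larger median, 0.15, with 4 called higher, and the heat shock list stood at 0.034 with 1 of 8 called. Pdcd1 and Cxcr5 encode proteins of the sort gate, and Cd3e, the CD3 epsilon chain, rose by 0.28 in the same comparison.

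In TFR cells, where 3.20% of all genes were called against 8.70% in activated TFH cells, the calls of the same lists were 5 of 9 Nr4a-linked genes (Pdcd1 0.25, Tigit 0.26 and Ikzf2 0.19 rose, Foxp3 fell by 0.10 and Bach2 by 0.020), 3 of 12 of the Egr list (Nab1 0.07 and Rnf128 0.019 rose, Dgka fell by 0.07) and 1 of 20 early genes (Il2ra fell by 0.07). Fos (−0.022), the 1 call of the immediate-early list, and Srf (−0.018), the serum response factor gene, fell, and none of the NFAT genes was called. The canonical follicular T cell list had 3 of 6 called higher and a median difference of 0.07. No gene of any of these lists was called for its level between the chimeras in any cluster. For the contrast of clone size effects between the chimeras, Lag3 was called in TFR cells (−0.26, limma's adjusted p = 0.0127).

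Expanded TFR cells were also compared by where the clone's other cells lay. In each mouse the expanded clones were divided into those with at least 50% of their cells in the TFR cluster (a mean of 42.3 clones and 348 TFR cells per mouse, n = 10) and those with most of their cells in other clusters (25.3 clones and 50.6 TFR cells, n = 9, with 22 to 74 cells per mouse). This division was chosen after the data had been seen. Foxp3 was found in 59.0% ± 4.99 of TFR singletons and 58.9% ± 5.39 of TFR-centred clones. It was found in 13.7% ± 8.70 of the TFR cluster cells whose clones lay mostly elsewhere. Median raw UMIs were 3633 ± 429, 3341 ± 391 and 3917 ± 617 in the same order. Taken over all cells, Foxp3 was found in 7.19% of activated TFH cells. For the last class the name TFR thus gives the cluster only.

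Among the members, and as an absolute difference in mean level rather than a ratio, Egr2 differed most between these classes. It was found in 17.4% ± 2.84 of singletons and in 14.4% ± 1.83 of cells of TFR-centred clones. In TFR cluster cells whose clones lay elsewhere the Egr2 share was 35.6% ± 10.1. In the last class its share was 18.2% in mouse 24, the mouse with the fewest cells, and between 27.0% and 54.3% in the other 8. All 9 lay above the 10 values of the TFR-centred clones, which ran from 11.9% to 18.0%, mouse 24 only just. Egr1 was found in 27.4% ± 5.15, 26.0% ± 3.37 and 38.5% ± 12.9 of the 3 classes, Nr4a1 in 15.3% ± 2.81, 12.1% ± 2.12 and 22.2% ± 6.45, and Egr3 in 3.43% ± 1.45, 2.45% ± 1.16 and 9.08% ± 4.22.

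**Figure D4:**
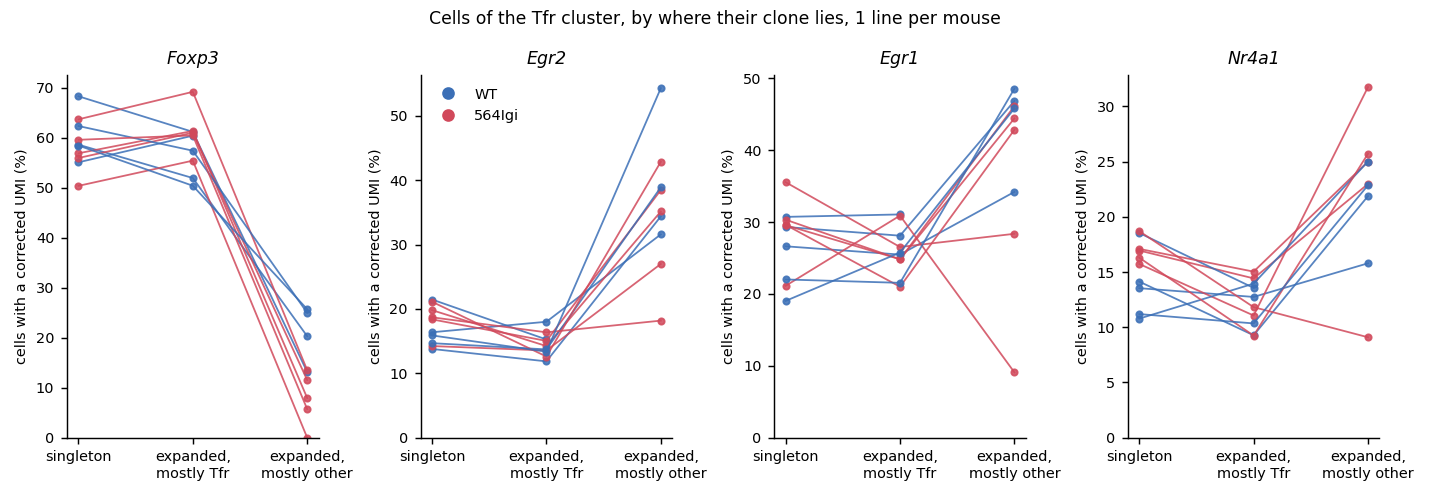
Share of TFR cluster cells with at least 1 corrected UMI of Foxp3, Egr2, Egr1 and Nr4a1 (y axes, percent) among singletons, expanded clones centred on the TFR cluster and expanded clones with most cells in other clusters (x axes), with 1 line per mouse, coloured by chimera. The Egr2 points of the last class lie at 18.2% in mouse 24 and from 27.0% to 54.3% in the other mice.

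Against singletons, TFR-centred clones had less Nr4a1 (−0.07, limma's adjusted p = 0.0037, lower in 9 of 10 mice), less Egr2 (−0.06, 0.00854, 9 of 10) and less Nr4a2 (−0.017, 0.0434, 8 of 10), where 5.42% of all genes were called lower. Egr3, Nr4a3 and Egr1 were not called, with adjusted p at 0.0548, 0.0805 and 0.123. TFR cluster cells of clones centred elsewhere had more Egr2 than singletons (0.44, limma's adjusted p = 6.42e-08, higher in 9 of 9 mice). They also had more Egr1 (0.37, 3.17e-05, 8 of 9), more Egr3 (0.07, 0.0115, 8 of 9) and more Nr4a1 (0.19, 0.00259, 7 of 9). In this comparison 3.72% of all genes were called higher. Foxp3 was found in 13.7% of these cells and 59.0% of the singletons, so the classes also differ in the cluster's own marker. Set directly against TFR-centred clones, the difference was 0.49 ± 0.24 for Egr2 in 9 of 9 mice (exact sign-flip p = 0.00391, the smallest that 9 mice can give), 0.43 ± 0.34 for Egr1 (p = 0.0117), 0.26 ± 0.19 for Nr4a1 (p = 0.0156), 0.09 ± 0.07 for Egr3 (p = 0.00781) and 0.08 ± 0.09 for Nr4a3 (p = 0.0352), by the exact test and without adjustment for the 7 quantities compared. Nr4a2 did not pass (0.027 ± 0.060, exact p = 0.223). This direct test was run for the 7 quantities only, so how many of all genes would pass it is not known. The cluster was drawn from expression, these genes included, so a cell of a TFH clone may have been placed in it through the level of a member, and this was not tested. Foxp3 and depth moved with the same classes, and their part in the differences was not tested either.

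The likeness of sister cells of a clone was measured for each member. The intraclass correlation, the share of the variance that lies between clones of a mouse, was computed over 5807 activated TFH cells of 1133 clones and 5082 TFR cells of 1062 clones with at least 2 cells in the cluster. In activated TFH cells it was 0.058 ± 0.079 (SD over 10 mice) for Nr4a1, 0.047 ± 0.049 for Egr1 and 0.042 ± 0.059 for Egr2, above 0 in 8, 8 and 7 mice, against a median of 0.0094 over all genes tested, which put these genes at percentiles 94.9, 92.4 and 90.7. Without the largest clone of each mouse the Egr2 value was 0.026 (percentile 79.5). It was 0.016 ± 0.045 for Egr3, 0.012 ± 0.087 for Nr4a2 and −0.0059 ± 0.048 for Nr4a3 (above 0 in 4 of 10 mice). In TFR cells it was 0.071 ± 0.054 for Egr2 (percentile 97.1, above 0 in 10 of 10 mice), against a median of 0.0067. It was 0.067 ± 0.045 for Nr4a1, 0.067 ± 0.041 for Egr1 and 0.066 ± 0.096 for Egr3 (above 0 in 6 of 10 mice). Nr4a2 stood at 0.030 ± 0.118 (percentile 84.1, above 0 in 6 mice) and Nr4a3 at 0.028 ± 0.084 (percentile 82.4, 7 mice). These values are small, so that most of the variance lay within clones. Expanded clones in the TFR cluster were centred on it or elsewhere, with Egr2 in 14.4% and 35.6% of their TFR cluster cells. The part of that mixture in the TFR values was not tested. The percentiles are over all genes tested and were not matched for how often a gene was detected.

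Among the largest clones, with at least 30 cells of a cluster, the spread could be read directly. Of 19 such clones in activated TFH cells of 7 mice, Egr1 was found in 9.23% to 60.8% of cells (median 27.9%), Nr4a1 in 0% to 40.0% (median 9.62%) and Egr2 in 0% to 32.6% (median 9.09%). The clone with the most Egr1, in mouse 12, had it in 48 of 79 cells (Wilson 95% interval 49.7% to 70.8%) but Nr4a1 in only 3 of 79. Mouse 12 had Egr1 in 40.2% of all its activated cells, so the range over clones also holds differences between mice. The clone with the least, in mouse 34, had Egr1 in 6 of 65 cells (4.30% to 18.7%). The clone with the most Nr4a1, in mouse 17, had it in 22 of 55 cells (28.1% to 53.2%). In the 14 such clones of TFR cells, from 6 mice, Egr1 ran from 16.5% to 39.5% and Nr4a1 from 3.51% to 23.8%. The intervals cover counting error only.

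Within single cells the members were found together. The correlations below are means over the 10 mice of Pearson's r over cells, given as a description, since the cells of a mouse share a library and differ in depth. Egr1 and Egr2 were the closest pair, at 0.42 in activated TFH and 0.58 in TFR cells. Nr4a1 correlated with Egr2 at 0.37 and 0.49, with Egr1 at 0.31 and 0.47, and with Nr4a3 at 0.24 and 0.46. Egr2 and Egr3 stood at 0.23 and 0.38, and Nr4a2 and Egr1, a loose pair, at 0.03 and 0.16. In shares of cells, Egr2 was found in 43.2% of TFR cells with Egr1 and in 7.32% of those without, and in 32.2% and 6.47% of activated TFH cells. Nr4a3 was found in 22.0% of TFR cells with Nr4a1 and in 1.84% of those without.

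**Figure D5:**
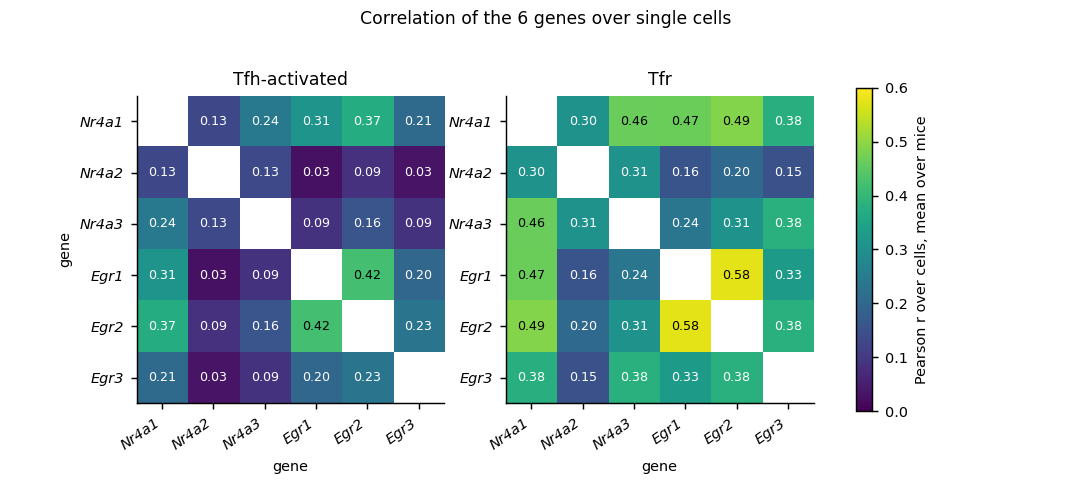
Mean over 10 mice of the Pearson correlation over cells between each pair of members, for activated TFH cells and for TFR cells, with the colour and the printed value giving r. Egr1 and Egr2 reach 0.42 and 0.58, the brightest cell of each panel, and Nr4a2 with Egr1 stands among the darkest at 0.03 and 0.16.

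The genes outside the family whose values over cells were most like the members were in part other early response genes. In activated TFH cells the closest were Tagap to Nr4a1 (mean r 0.27), Egr2 (0.34) and Egr3 (0.13), the immediate-early gene Ier2 to Egr1 (0.32), Rilpl2 to Nr4a3 (0.14) and the chemokine gene Xcl1 to Nr4a2 (0.20). In TFR cells they were the NF-kB inhibitor gene Nfkbid to Nr4a1 (0.40) and Nr4a3 (0.34), Ier2 to Egr1 (0.42), Tagap to Egr2 (0.45), Tnf to Egr3 (0.32) and the signalling inhibitor gene Spry1 to Nr4a2 (0.19). Values below 0.2 in these sparse counts are weak. Over the 56 means of a mouse and a cluster, the most alike were Ddc for Nr4a1 (r 0.77), Arl5b for Nr4a3 (0.78), Zfp36 for Egr1 (0.64), Atp5b for Egr2 (0.66) and Utp20 for Egr3 (0.73).

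Because the heat shock signature and depth differed between mice, each member's mean over a mouse was set against both (12 relations over the 10 mice). Egr2 had the smallest p, with the mean heat shock score (Pearson r 0.72, permutation p = 0.0182, adjusted p = 0.218, Spearman coefficient 0.70, permutation p = 0.0303), and r was 0.74 without mice 34 and 36, the farthest from the median. It did not pass the adjustment over the 12 relations. Without the same mice r with that score went from −0.27 to 0.75 for Nr4a3 and from −0.39 to 0.53 for Nr4a2, so both turned positive. For Nr4a1 it went from 0.26 to 0.62, a larger value without these mice. With median raw UMIs, r without mice 17 and 24 went from −0.20 to 0.57 for Nr4a2 and from −0.19 to −0.45 for Egr1. The other 11 relations had adjusted p of at least 0.672.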

How the data were processed

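Single-cell RNA and TCR libraries (10x 5′ chemistry) of splenic CD4+CXCR5+PD-1+ cells were made from each of 10 chimeras, 5 WT and 5 564Igi. Per the submitters' processing notes, reads were processed with Cell Ranger 4.0.0 on GRCm38 (mm10) and analysed in Seurat 3.1.4. Cells outside the authors' limits on genes, reads, mitochondrial and ribosomal content or cell cycle scores had been removed, as had the antigen receptor genes, and the heat shock score was among the covariates of the normalization. The deposited expression values are the natural log of the authors' sctransform-corrected UMI count plus 1, corrected within each chimera group. With the log undone, 100% of values were whole (tolerance 1e-06). The deposited cell table gives the raw UMI count, the percent of mitochondrial UMIs, the authors' heat shock score and their cluster names. The deposited TCR table lists 1 alpha and 1 beta chain and their UMI counts for each cell.

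The level of a gene was the mean over a mouse's cells of log2(corrected UMIs + 1), and the mouse was the replicate (n = 5 in each group). The labels do not say whether mice shared a litter or a day. Groups were compared with limma 3.58.1 (R 4.3.3) with a mean-variance trend and Benjamini-Hochberg adjustment over all genes that passed a filter on low values (a share of cells of 1% or more in a number of mice equal to the size of the smaller group), on mice with at least 20 cells of the cluster. Single genes were also tested by exact two-sided permutation or sign-flip over mice (Python 3.11.15, scipy 1.17.1). Clone size was tested on within-mouse differences. The pairing comes from the mouse itself, since both classes are cells of the same animal. A count model was not run, because raw counts by gene were not used here, and cells could not be thinned to 1 depth. The fits were tested on simulated data. Some genes of the lists are not reported here. No doublet caller was run. Named genes were the members, genes of the lists with the smallest p (at most 5 each) and the genes most like each member. Alternatives covered the trend, the filter, the call rule, covariates, scale, depth, clone limits and each mouse left out. The members and lists were chosen with earlier results of these data known. The methods describe a booster 4 weeks after immunization, a time point that the labels do not give.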

Additional observations from a re-analysis of the deposited data

Results flagged for a closer look

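Among 108 groups of 4 or 5 mice, 8 held a mouse whose gap to the nearest other exceeded Dixon's limit at 95%, a test that flags about 1 group in 20 by chance. Egr2 was found in 10.28% of activated TFH cells of 564Igi mouse 21, against 14.08% to 15.19% in the other 564Igi mice, and in the same mouse the Egr2 difference between expanded and singleton activated cells was −0.07499, against 0.03187 to 0.04059. Egr3 was found in 4.287% of activated TFH cells of 564Igi mouse 13, against 1.546% to 2.258%. Nr4a1 was found in 28.57% of the interferon-stimulated cells of the same mouse, against 9.302% to 11.76%. Nr4a3 was found in 3.576% of activated TFH cells of WT mouse 14, against 1.481% to 2.014% in the other WT mice.

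The remaining flags rest on few cells or mice. Egr3 was found in 1.471% of the interferon-stimulated cells of 564Igi mouse 34 and in 1.299% of the effector cells of WT mouse 11, while it was listed at 0 in the other mice of their groups. The Egr1 difference between expanded and singleton Sostdc1 cells was −0.07439 in 564Igi mouse 17, against −0.1863 to −0.1706 in the other 3.

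The effect of clone size differed between the chimeras for 2 members before adjustment. In activated TFH cells the expanded minus singleton difference in Egr3 was lower in 564Igi than in WT mice by −0.01787 (exact permutation p = 0.0397, limma's adjusted p = 0.686). In Sostdc1 cells that of Egr1 was lower by −0.2671, with means of 0.12 in 3 WT mice and −0.15 in 4 564Igi mice (exact permutation p = 0.0286, the smallest that 3 against 4 mice can give, limma's adjusted p = 0.508). Neither passed the adjustment over all genes.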

How the results depend on the processing

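No member was called between the chimeras under any alternative, and no member was called for clone size in Sostdc1 cells or for the contrast of clone size effects between chimeras under any alternative run for them. The call of Egr1 with clone size in activated TFH cells held with each mouse left out (difference 0.061 to 0.098, limma's adjusted p 0.00257 to 0.0251), without mice 34 and 36, with clones of at least 2 or 10 cells and without the largest clone of each mouse. It fell to 0 members called without the variance trend (limma's adjusted p = 0.097), with no filter on low genes (0.0977), with cells averaged within clones, with clones mostly in other clusters and under the stricter rule (adjusted p under 0.01 and a difference over 0.2). Of the member differences, 42 exceeded 1 SE or were called under some setting, and under the alternatives 667 of their 694 values kept their direction and their side of the threshold, 6 became weaker, 6 stronger and 15 reversed, while 31 of the other 39 differences, within 1 SE and called nowhere, changed sign somewhere. All 24 values of likeness within clones moved by less than their SD, and 7 of 12 cluster ranks were the same, those of Egr1 and Egr2 in central memory cells falling to rank 4 and 3 in cells with 3000 to 4500 raw UMIs and on shares of cells, and that of Nr4a3 to 2 in that window, which left 3 mice with enough central memory cells and 2 with enough interferon-stimulated cells and narrows depth without making it equal. The alternative of 1 alpha and 1 beta chain left out no cell. The alternatives of clones mostly in or out of a cluster, and of the clone tests without mice 34 and 36, were chosen after seeing the data. Depth limits the rarer members most, with few positive cells per mouse in the small clusters.

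Ignoring the pairing (no replicate block) left Egr1 in activated TFH cells at 0.09 (limma's adjusted p = 0.374, 0 members called) and called 19 genes in activated TFH, 12 in TFR and 0 in Sostdc1 cells, against 858, 320 and 2 with the pairing.

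The number of genes called moved more than the members did. For clone size in Sostdc1, activated TFH and TFR cells it was 0, 22 and 10 under the stricter rule, 0, 517 and 103 without the filter, 0, 569 and 169 on shares of cells, and 0 and 202 in Sostdc1 and TFR cells without the trend. It was 0 and 370 in Sostdc1 and activated cells with cells averaged within clones (where 2 members, Egr1 and Egr2, were called in TFR cells), 0 and 204 in Sostdc1 and TFR cells with clones of at least 10, 0 in Sostdc1 cells with clones of at least 2, and 1 and 529 in Sostdc1 and activated cells without mice 34 and 36. Clones centred on the cluster gave 0 in Sostdc1 and 685 in TFR cells (3 members), and clones centred elsewhere 273 in activated (0 members) and 744 in TFR cells (4 members). Leaving out 1 mouse gave 0 to 3, 595 to 1055 and 192 to 352, and for the contrast between chimeras 0 to 3, 0 to 13 and 1 to 18 against 0, 0 and 11.

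Between the chimeras the counts for all, activated TFH, TFR, Sostdc1, central memory, effector and interferon-stimulated cells were 7, 4, 9, 4, 3, 6 and 1. They became 1, 1, 2, 2, 0 and 1 for the first 6 under the stricter rule, 2, 2, 3, 1, 0 and 1 without the filter, 4, 1, 4, 1, 1 and 2 on shares of cells, and 1, 0, 0, 1, 1, 0 and 0 without the trend, which also gave 0 against 2 for TFR minus activated cells. Labelled sex as a covariate gave 13, 21, 7 and 11 in all, TFR, Sostdc1 and central memory cells, and the heat shock score gave 14, 16 and 4 in all, effector and interferon-stimulated cells. Summed counts scaled to a common total gave 1, 13 and 3 in activated, central memory and interferon-stimulated cells, the window of 3000 to 4500 raw UMIs 2 in all cells, and leaving out mice 34 and 36 gave 15, 0 and 3 in all, central memory and interferon-stimulated cells. Leaving out 1 mouse gave 3 to 26, 1 to 19, 5 to 27, 2 to 6, 0 to 68, 1 to 13 and 1 to 4, and 1 to 38 for TFR minus activated cells. WT mouse 14 gave the 26, 19, 27 and 38, and 564Igi mouse 24 the 68.

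Among those 42 differences, directions reversed for clone size in TFR cells and for 1 comparison of the chimeras. With cells averaged within clones Nr4a1 was 0.042 and Egr3 0.033, and in clones centred elsewhere Nr4a1 was 0.19, Nr4a2 0.0087 and Egr3 0.072. In clones centred on TFR Egr1 was −0.051 and Egr2 −0.057. Without mice 34 and 36 they were −0.00049 and −0.00079, and Egr2 was −0.0023 on shares of cells. The Egr1 difference of 0.0024 ran from −0.017 to 0.011 with 1 mouse left out, being −0.00023, −0.017, −0.00071 and −0.0021 without mice 11, 23, 24 and 36. Egr1 between the chimeras in activated TFH cells ran from −0.078 to 0.0056 with 1 mouse left out, the highest without mouse 12. The cause was not tested for any of these.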
